A study of Mus musculus with 14 samples.

Results

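The 52 cell cycle and DNA replication genes described here were taken from the count table by gene symbol, from a list of known cell cycle genes. They comprise 19 mitotic genes, 13 S phase genes, 5 E2F factors, 8 G1 cyclins and cyclin-dependent kinases (CDKs), 5 CDK inhibitors and 2 pocket proteins. All 52 are among the 24091 genes of the deposited count table, and all 52 had enough reads to be tested. They were measured by mRNA sequencing of T cells sorted from the spleen, 200000 cells per mouse and 1 library per mouse, in 8 CP CML and 6 BC CML mice. All 14 mice carried SCLtTA/BCR-ABL, in which a tTA driven by the SCL promoter switches on the BCR-ABL oncogene when tetracycline is withdrawn (tet-off, 3 weeks). The CP CML mice were Mir142+/+BCR-ABL and the BC CML mice Mir142−/−BCR-ABL, the latter lacking the microRNA gene Mir142 from the germline on, so that every cell of the mouse lacked it. The mice were C57Bl/6j, male and female, 6 to 10 weeks old. No group without BCR-ABL is among these libraries. The SCL promoter is active in blood stem and progenitor cells, so BCR-ABL is switched on above the T cell in the hierarchy, and a T cell's own expression of it was not measured here. The numbers that end the library names have one first part in CP CML and a different one in BC CML, and what it stands for is not stated, so whatever it marks cannot be told apart from genotype.

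Cells divide by alternating a phase of DNA synthesis (S phase) with mitosis. In G1, D-type cyclins activate CDK4 and CDK6, which together with cyclin E and CDK2 phosphorylate the pocket proteins and release E2F factors, and these switch on the genes of DNA replication. Genes of mitosis are switched on later, through a promoter element called CHR and through FOXM1, and in resting cells both sets are held off by pocket proteins and by CDK inhibitors. Resting T cells stay outside the cycle with high levels of the inhibitor p27, and antigen or cytokines bring them into it.

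Mir142 was checked first because it is the deleted gene. Each CP CML library held 302 to 650 of its reads and all 6 BC CML libraries held 0, at least 171.5-fold lower against a floor of 3 reads in a library of the median BC CML size. These reads stem from the primary transcript, not from the mature microRNA. The mature sequences (RefSeq, GRCm38.p6, both on the plus strand) are shown because the BC CML mice lack them, with the seed (bases 2 to 8) in capitals. miR-142a-5p lies at chr11:87756867-87756887 and miR-142a-3p at chr11:87756903-87756925.
mmu-miR-142a-5p: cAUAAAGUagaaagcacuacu
mmu-miR-142a-3p: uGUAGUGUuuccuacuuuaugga

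The longest annotated 3′UTR of each gene (GENCODE vM21, mm10) was searched for sites matching either seed. An 8mer site pairs with the whole seed and is followed by an A, and a 7mer site lacks either the A or the pairing at base 8. Of the 52 genes, 0 held an 8mer site, where 7.99% of the 11503 tested genes with a 3′UTR held one. At least 1 site of any kind was present in 12 of the 52 genes (23.1%) and in 30.7% of all tested genes. Among the genes that passed the test described below, sites were present in 4 of the 14 higher and 2 of the 9 lower in BC CML, and among the 29 others in 6. The sites of 5 of these 6 genes are given in up to 30 bases of the transcript strand with the site in capitals. Ccne2 (cyclin E2) held 1 site for miR-142a-3p at chr4:11203276-11203282 and 2 for miR-142a-5p, at chr4:11203882-11203888 and chr4:11203951-11203957, on the plus strand.
Ccne2, miR-142a-3p: tcaatccccagCACTACAaaaggaaacaaa
Ccne2, miR-142a-5p, first: tagaaaggttgCTTTATAatctttttgtgt
Ccne2, miR-142a-5p, next: ataagaaagtcACTTTATtgcacactaaga
E2f3 (chr13:29908269-29908275, minus strand) and Foxm1 (chr6:128374795-128374801, plus strand), both higher in BC CML, each held 1 site for miR-142a-3p.
E2f3, miR-142a-3p: agcagtttgaaACACTACgtgcctggcctt
Foxm1, miR-142a-3p: gctacagaacaACACTACtgtaactaccta
Mcm2 (chr6:88883736-88883742, minus strand) and Rbl2 (chr8:91123153-91123159, plus strand), both lower in BC CML, each held 1 site for miR-142a-5p.
Mcm2, miR-142a-5p: tcaggtgacagACTTTATcaaaactattgc
Rbl2, miR-142a-5p: taattggtggcACTTTATggctgtaagatg
E2f7, also higher, held 2 sites for miR-142a-5p. Cdk6 and the 5 CDK inhibitors held none of these letters in the 3′UTR searched. Matches are a description of sequence and were found in genes that moved either way.

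The libraries held between 15703702 and 19914531 counted reads, and the 52 genes took between 0.334% and 0.436% of them. T cell markers were high throughout, with a summed level of 3467 to 4030 CPM (reads of a gene per 1000000 counted reads) in CP CML and 4522 to 4878 CPM in BC CML for 9 genes. Markers of other cells were present and differed between the groups. For myeloid cells, 15 of 16 markers were higher in BC CML, and their summed level was 76.7 to 740.1 CPM in CP CML and 868 to 2283 CPM in BC CML, with only Elane and Ly6g at 0 in a library (1 each). For natural killer cells, 4 of 4 tested markers were higher (56.9 to 77.3 CPM against 176 to 299 CPM), and Klra4 was at 0 in all 14. For B cells, 7 of 8 were higher, with overlapping sums of 59.3 to 178 CPM and 104 to 513 CPM. For erythroid cells, 4 of 7 tested markers were higher, with overlapping sums of 16.7 to 66.4 CPM and 47.7 to 78.9 CPM. For plasma cells, 2 of 4 were lower and 1 higher (8.53 to 72.0 CPM against 3.78 to 8.91 CPM), with Tnfrsf17 at 0 in 9 libraries. For stem and progenitor cells, 3 of 4 tested markers were higher, from 4.24 to 10.3 CPM against 20.7 to 49.7 CPM. As for T cell states, 7 of 8 markers of naive T cells were lower and 1, Satb1, higher (summed, 5729 to 7157 CPM against 3517 to 4913 CPM). Of 8 markers of activated or effector T cells, 5 were higher and 1, Prf1, lower (summed, 432 to 553 CPM against 603 to 1001 CPM). Which of the sorted cells carried these changes was not tested. One library, BC CML 5, stood apart in the genes described here, and values without it are given for the counts by role and for the members whose call it changes. Its name alone carries the suffix RP, which no source used here explains.

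The test found 14 members higher and 9 lower in BC CML (edgeR's quasi-likelihood test, adjusted p-value below 0.05 after Benjamini-Hochberg adjustment over all 12248 genes tested), 44.2% against 65.2% of all genes. Of all genes, 32.6% were higher and 32.7% lower. The members' median log2 fold change was 0.09 and their median absolute log2 fold change 0.19, where the values over all genes were -0.01 and 0.28. Counting only absolute log2 fold changes of 0.5 or more, 10 of the 52 passed, where 28.5% of all genes did. The groups of mice did not overlap for 12 of the 52 genes, and for 36.9% of all genes. By role, 2 of 19 mitotic genes, 5 of 13 S phase genes and 16 of the 20 others passed the test, with median SEs of 0.13, 0.07 and 0.09 on the log2 scale, and no test of a difference between roles was made. Without BC CML 5, 13 members were higher and 13 lower, made up of 4 of 19 mitotic genes, 7 of 13 S phase genes and 15 of the 20 others. Over all genes, 7986 passed with every mouse kept and 7721 to 7966 with any 1 mouse left out. In sorted cells, a lower value can mean fewer cells in a phase of the cycle or less RNA per cell, and these cannot be told apart.

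**Figure D1:**
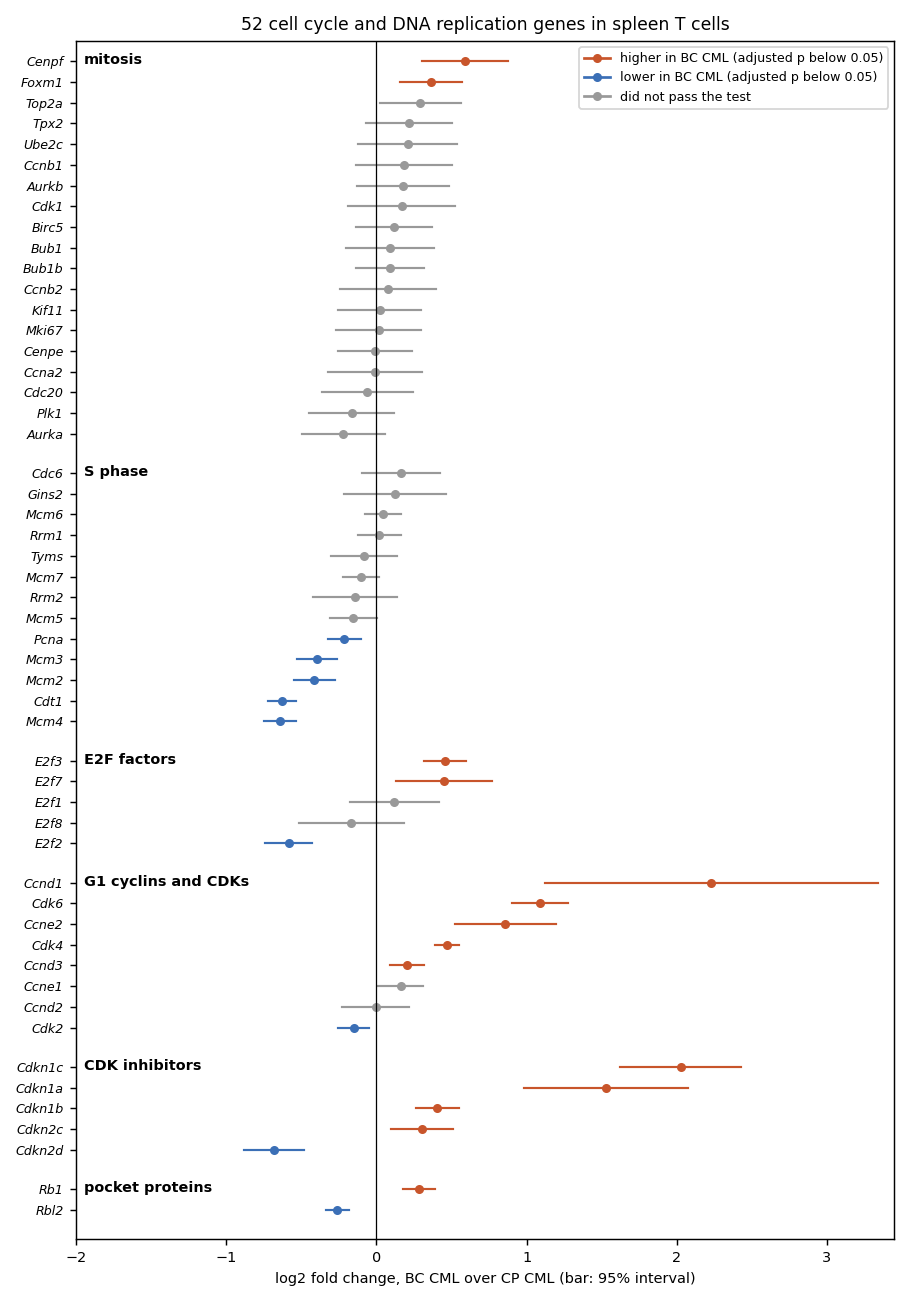
Log2 fold change of BC CML over CP CML with its 95% interval (x axis) for the 52 genes (y axis), in blocks by role, coloured by the direction of the genes that passed the test. The 13 S phase genes hold 5 lower and 0 higher, the 19 mitotic genes 2 higher and 0 lower, and the CDK inhibitors 4 higher and 1 lower.

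Of the 19 mitotic genes, Cenpf and Foxm1 passed the test, both higher, and 17 did not pass (10.5% called, against 65.2% of all genes), while the median log2 fold change of the 19 was 0.09. Mki67, whose protein Ki-67 marks cycling cells, ranged from 185 to 261 CPM in CP CML (median 243) and from 181 to 347 CPM in BC CML (median 224). The groups overlapped, and the log2 fold change was 0.01 (95% interval -0.27 to 0.30). Top2a, which untangles the replicated chromosomes, ranged from 115 to 163 CPM (median 144) and from 128 to 254 CPM (median 166), a log2 fold change of 0.29 ± 0.13 (SE) that missed the threshold (adjusted p = 0.0555). The Top2a log2 fold change passed when CP CML 3 (0.32), BC CML 1 (0.33) or BC CML 4 (0.36) was left out, and was 0.15 without BC CML 5 (adjusted p = 0.145). The mitotic kinase genes gave log2 fold changes of 0.17 for Cdk1, 0.18 for Aurkb, -0.22 for Aurka and -0.16 for Plk1. For the cyclins that partner CDK1, they were 0.18 for Ccnb1, 0.08 for Ccnb2 and -0.01 for Ccna2. The spindle checkpoint genes Bub1 and Bub1b gave 0.09 each, and Cdc20, which the checkpoint restrains, gave -0.06. Among the spindle motors and their partners, Kif11 gave 0.02, Cenpe -0.01 and Tpx2 0.22. Birc5 (survivin) gave 0.12 and Ube2c, the ubiquitin-conjugating enzyme of the anaphase-promoting complex, 0.21. None of these passed the test, and in each the groups overlapped.

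Cenpf, a large kinetochore protein, was the mitotic gene with the clearest difference. It ranged from 21.6 to 29.6 CPM in CP CML (median 26.9) and from 30.1 to 59.4 CPM in BC CML (median 37.3). The lowest BC CML value exceeded the highest CP CML value, with a log2 fold change of 0.59 ± 0.13 (SE) and an adjusted p of 0.00117 (edgeR). Foxm1, the transcription factor of late cell cycle genes, ranged from 11.8 to 18.2 CPM (median 15.6) and from 17.2 to 24.3 CPM (median 19.1). Its groups overlapped slightly, and its log2 fold change was 0.36 ± 0.10 (SE; adjusted p = 0.00367).

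BC CML 5 had the highest value of all 14 mice in 19 of the 19 mitotic genes. Its summed mitotic level was 1073 CPM, the next highest BC CML mouse had 747 CPM, and the CP CML mice ranged from 545 to 761 CPM. The other BC CML mice, from 569 to 747 CPM, lay within or close to the CP CML range. The median SD of log2 CPM over the 19 genes was 0.34 in BC CML, 0.21 in BC CML without this mouse and 0.18 in CP CML, where the median over all genes was 0.13 in either group. BC CML 5 was not the mouse with most myeloid RNA (1557 CPM, against 2283 CPM in BC CML 6) or most B cell RNA (292 against 513 CPM), and it had the highest erythroid sum, 78.9 CPM. The part of these cells in its mitotic level was not tested. Without BC CML 5, Cenpf (log2 fold change 0.43) and Foxm1 (0.29) still passed, the median of the 19 was -0.03, and Aurka (-0.39, adjusted p = 0.00208 by edgeR) and Plk1 (-0.32, adjusted p = 0.0118) passed as lower. The positive values of genes without a call also shrank without it, to 0.04 for Tpx2, 0.02 for Ube2c, 0.02 for Aurkb, 0.03 for Cdk1 and 0.05 for Ccnb1. An antisense gene shares 22.8% of the exon bases of Ube2c. In CP CML the mitotic genes also moved together, with CP CML 3 highest of its group in 14 of 19, and CP CML 2 and CP CML 6 lowest in 9 each.

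**Figure D2:**
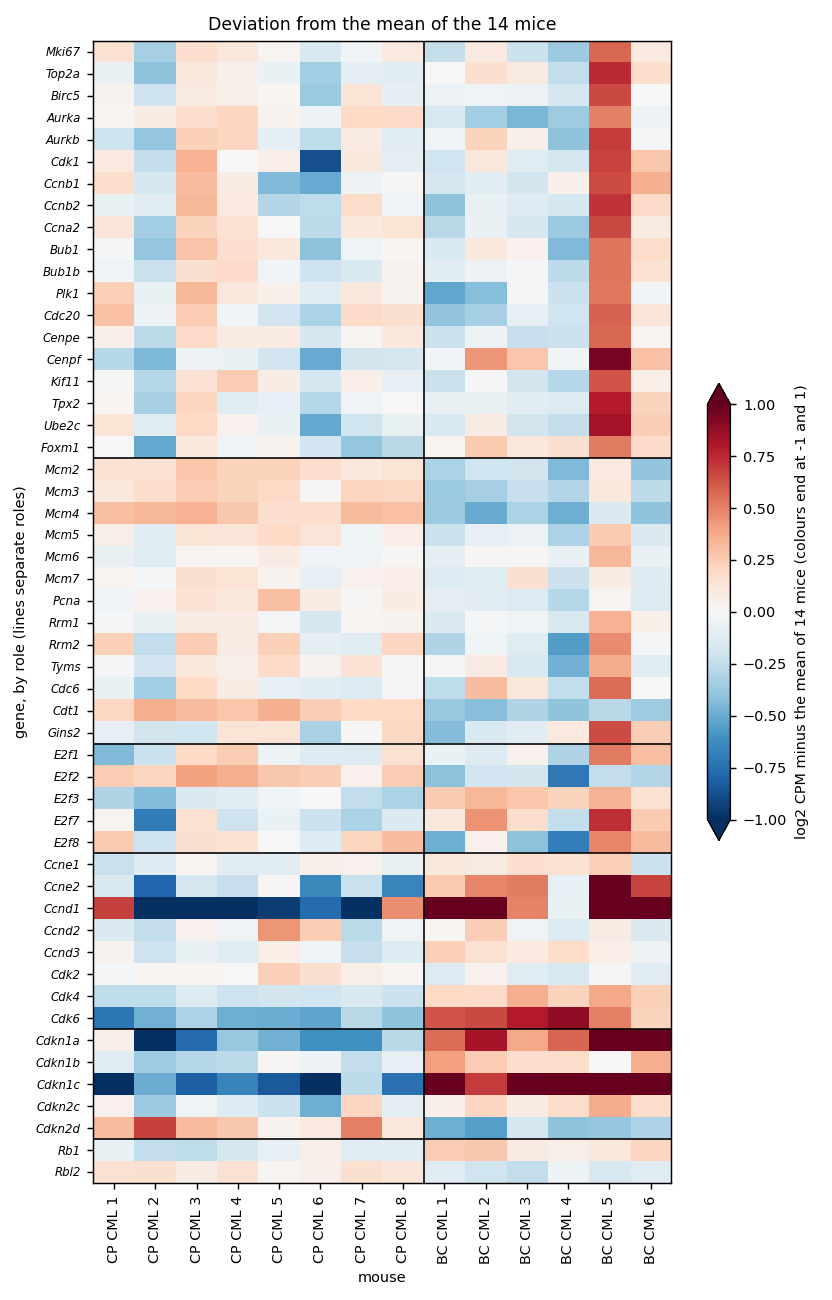
Log2 CPM of each gene (rows, by role) in each mouse (columns), minus the gene's mean over the 14 mice, with red above and blue below that mean and colours that end at -1 and 1. The BC CML 5 column is red throughout the 19 mitotic genes, and the rows of Mcm4, Cdt1 and E2f2 change from red to blue between CP CML and BC CML.

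The mitotic genes shared promoter letters that their choice did not use. Promoter windows from 250 bases before to 50 after the transcription start (RefSeq, GRCm38.p6) were given for 41 of the 52 genes, 15 of them mitotic. The windows were searched on both strands for the CHR letters TTTGAA, for the variant TTTAAA (the same on either strand), for CCAAT, and for 4 E2F words (TTTCCCGC, TTTGGCGC, TTCCCGCC and TTGGCGGG), of which some overlap each other. TTTGAA was present in 11 of 15 mitotic genes (73.3%, against 14.5% of the 9548 tested genes with a window), CCAAT in 14 of 15 (93.3%, against 43.2%), TTTAAA in 6 of 15 (40%, against 10.96%) and an E2F word in 0 of 15 (against 8.86%). The windows of Cenpf (chr1:189688037-189688336, minus strand), which rose, and of Cdk1 (chr10:69352863-69353162, minus strand), which did not pass the test, are shown with these letters in capitals. Both hold TTTGAA and CCAAT or its reverse complement.
Cenpf: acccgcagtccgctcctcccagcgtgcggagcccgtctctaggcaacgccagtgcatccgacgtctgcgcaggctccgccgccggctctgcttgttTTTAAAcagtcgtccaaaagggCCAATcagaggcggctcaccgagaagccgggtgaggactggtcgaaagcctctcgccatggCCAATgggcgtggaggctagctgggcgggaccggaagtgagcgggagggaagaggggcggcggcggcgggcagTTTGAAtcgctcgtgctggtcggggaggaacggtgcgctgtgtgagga
Cdk1: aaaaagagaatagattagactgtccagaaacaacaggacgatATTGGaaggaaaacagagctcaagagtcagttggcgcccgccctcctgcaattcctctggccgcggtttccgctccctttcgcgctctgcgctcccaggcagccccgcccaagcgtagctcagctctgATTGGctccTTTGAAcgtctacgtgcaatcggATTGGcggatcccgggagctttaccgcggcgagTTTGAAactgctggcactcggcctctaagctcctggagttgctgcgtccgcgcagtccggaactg

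Of the 13 S phase genes, 5 fell (38.5%, where 32.7% of all genes were lower) and 0 rose (where 32.6% of all genes were higher), with a median log2 fold change of -0.14. Those that fell were Cdt1, Mcm2, Mcm3 and Mcm4, which act in origin licensing, and Pcna. Cdt1, which loads the MCM helicase onto origins, ranged from 39.4 to 43.8 CPM in CP CML (median 41.0) and from 25.4 to 28.2 CPM in BC CML (median 26.5). The groups lay far apart for their spread, and the log2 fold change was -0.63 ± 0.04 (SE; adjusted p = 1.05e-09), a fall of 35.3%. Mcm4, a subunit of that helicase, ranged from 150 to 169 CPM (median 163) and from 93.8 to 120 CPM (median 102), also without overlap. Its log2 fold change was -0.64 ± 0.05 (SE; adjusted p = 6.85e-09).

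Of the 6 genes of the MCM2 to MCM7 ring, whose proteins assemble in equal number, 3 fell and 3 did not pass (50% called, against 65.2% of all genes). Mcm2 fell from a range of 85.4 to 96.1 CPM (median 88.8) to one of 58.4 to 84.8 CPM (median 66.4), without overlap and with a log2 fold change of -0.41 ± 0.07 (SE; adjusted p = 2.89e-05). Mcm3 fell from 79.2 to 93.4 CPM (median 90.3) to 60.7 to 84.2 CPM (median 64.8), with a log2 fold change of -0.40 ± 0.06 (SE). Its groups overlapped by the single value of BC CML 5. Mcm5 (-0.15, adjusted p = 0.0757), Mcm7 (-0.10, adjusted p = 0.116) and Mcm6 (0.04, 95% interval -0.08 to 0.16) did not pass. Mcm7 passed as lower without BC CML 3 (-0.15, adjusted p = 0.0166 by edgeR), and the Mcm5 log2 fold change passed without CP CML 2 (-0.18) or BC CML 5 (-0.24). The interval of Mcm6 lies wholly above that of Mcm4, -0.75 to -0.53, and no test of the difference between these genes was made. Summed over the 6 genes, the level was 639 to 702 CPM in CP CML and 506 to 673 CPM in BC CML, where BC CML 5 alone was above 574 CPM.

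Pcna, the sliding clamp of DNA polymerase, ranged from 133 to 167 CPM (median 143) and from 111 to 138 CPM (median 124), a log2 fold change of -0.21 ± 0.05 (SE; adjusted p = 0.00149). Rrm1 (0.02) and Rrm2 (-0.14), subunits of ribonucleotide reductase, and Tyms (-0.08), thymidylate synthase, did not pass. Outside the 52 genes, Rrm2b, another subunit of that reductase (-0.14, adjusted p = 0.0498), and Dut, the dUTPase (-0.18, adjusted p = 0.0383), passed as lower by edgeR and were named after their values were seen. Cdc6, the partner of CDT1 in licensing, gave 0.16 ± 0.12 (SE), and its interval of -0.10 to 0.42 lies above that of Cdt1. Gins2, of the helicase activator GINS, gave 0.12, with 2.70 to 3.96 CPM in CP CML and 2.50 to 5.42 CPM in BC CML. In the annotation, 67.3% of the exon bases of Gins2 overlap Gse1 on the opposite strand, and the strand setting of the counts is not stated, so its value is uncertain. BC CML 5 was the highest BC CML mouse in 12 of the 13 S phase genes. Without it, 7 of 13 were lower, Mcm5 (-0.24) and Rrm2 (-0.28) being added, Cdc6 was at 0.05, Tyms was at -0.18, the median was -0.24 and 12 of the 13 log2 fold changes were below 0.

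The same letters were counted in the promoters of the S phase genes, with no test against those of mitosis. An E2F word was present in 7 of the 11 with a window (63.6%), TTTGAA in 1 (9.09%), CCAAT in 8 (72.7%) and TTTAAA in 2 (18.2%). The 7 were Mcm3 and Cdt1, which fell, and Mcm5, Mcm6, Mcm7, Rrm1 and Cdc6, which did not pass. Of the others that fell, Mcm2 and Pcna held no E2F word in this window, and no window was given for Mcm4. The windows of Cdt1 (chr8:122567765-122568064, plus strand) and Mcm3 (chr1:20820263-20820562, minus strand) are shown with the same letters in capitals.
Cdt1: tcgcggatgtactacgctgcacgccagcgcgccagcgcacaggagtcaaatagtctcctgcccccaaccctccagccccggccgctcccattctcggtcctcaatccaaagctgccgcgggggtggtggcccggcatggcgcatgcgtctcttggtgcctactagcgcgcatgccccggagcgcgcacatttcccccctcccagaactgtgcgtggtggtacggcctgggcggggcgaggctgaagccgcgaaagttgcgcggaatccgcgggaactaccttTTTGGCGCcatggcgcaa
Mcm3: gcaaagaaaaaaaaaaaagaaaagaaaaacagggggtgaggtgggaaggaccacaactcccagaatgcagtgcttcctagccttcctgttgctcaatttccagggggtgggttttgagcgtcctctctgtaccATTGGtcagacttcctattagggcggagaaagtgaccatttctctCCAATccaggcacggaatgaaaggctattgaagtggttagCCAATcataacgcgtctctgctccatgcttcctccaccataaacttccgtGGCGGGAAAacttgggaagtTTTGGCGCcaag

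Set against each other in each mouse, the summed S phase level ranged from 947 to 1045 CPM in CP CML and from 757 to 1021 CPM in BC CML. The 1021 CPM belonged to BC CML 5, and the other 5 BC CML mice, up to 856 CPM, lay below every CP CML mouse. The ratio of the summed S phase level to the summed mitotic level was 1.37 to 1.75 in CP CML (median 1.46) and 0.951 to 1.33 in BC CML (median 1.23). The ratios of the groups did not overlap, BC CML 5 being the lowest. Abundant genes weigh most in these sums. In CP CML, Mki67 and Top2a had means of 235 and 141 CPM within a mean mitotic sum of 665 CPM. The mean of Mcm4 alone was 161 CPM in CP CML and 103 CPM in BC CML, within mean S phase sums of 992 and 846 CPM. The ratio is a description over chosen genes and carries no test.

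**Figure D3:**
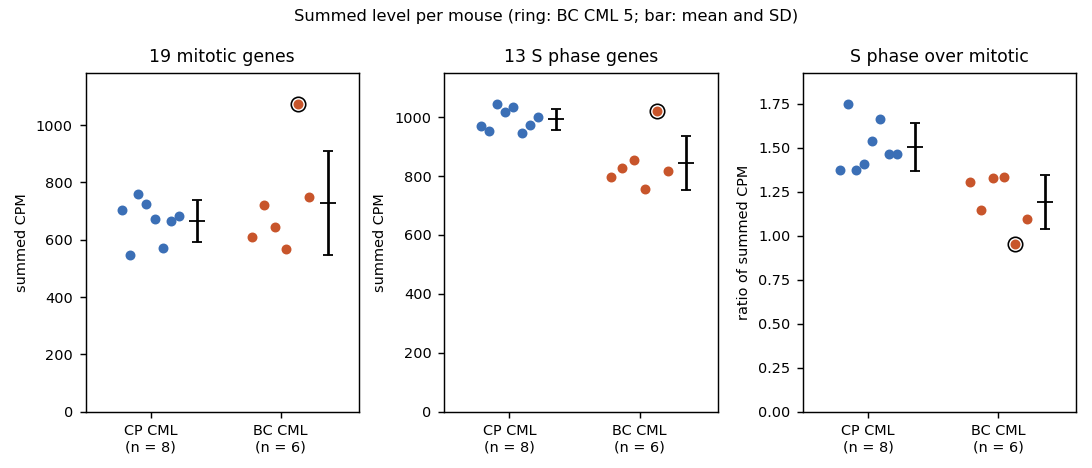
Summed CPM of the 19 mitotic genes (left) and the 13 S phase genes (middle) and the ratio of the S phase sum to the mitotic sum (right), 1 point per mouse with the mean and SD beside each group and BC CML 5 ringed. The mitotic sums overlap apart from BC CML 5 at 1073 CPM, and the ratios, 1.37 to 1.75 in CP CML and 0.951 to 1.33 in BC CML, do not overlap.

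Of the 5 E2F genes, 2 rose and 1 fell (60% called, against 65.2% of all genes). E2f2, an activator E2F, fell from a range of 59.9 to 76.9 CPM (median 69.5) to one of 35.5 to 51.4 CPM (median 48.4). The groups did not overlap, with a log2 fold change of -0.59 ± 0.07 (SE; adjusted p = 2.02e-06). E2f3, another activator, rose from 14.4 to 19.5 CPM (median 17.0) to 21.6 to 24.6 CPM (median 23.5), also without overlap, with a log2 fold change of 0.46 ± 0.07 (SE; adjusted p = 1.15e-05). E2f1, the third activator, did not pass (0.12, 95% interval -0.18 to 0.42) and was at 0.01 without BC CML 5. The repressor E2f7 rose by 0.45 ± 0.15 (SE; adjusted p = 0.0152) at 2.75 to 7.64 CPM, with overlapping groups, and missed the threshold without BC CML 5 (0.33, adjusted p = 0.0548). The other repressor, E2f8, did not pass (-0.17, and -0.31 without BC CML 5). TTTGAA was present in 3 of the 5 E2F genes and an E2F word in 3. The first of 2 windows of E2f3 (chr13:29986014-29986313, minus strand) holds both.
E2f3: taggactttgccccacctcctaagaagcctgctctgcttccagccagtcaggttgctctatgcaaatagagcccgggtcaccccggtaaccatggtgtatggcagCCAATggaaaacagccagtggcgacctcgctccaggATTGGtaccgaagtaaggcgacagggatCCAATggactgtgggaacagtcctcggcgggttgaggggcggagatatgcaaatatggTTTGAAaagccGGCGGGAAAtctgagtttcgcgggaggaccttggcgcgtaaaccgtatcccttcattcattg

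Among the 8 G1 cyclins and CDKs, 5 rose and 1 fell (75% called, against 65.2% of all genes). Cdk6, the kinase partner of D-type cyclins in blood cells, ranged from 91.3 to 125 CPM in CP CML (median 108) and from 176 to 279 CPM in BC CML (median 237). No BC CML mouse came near the CP CML range, and the log2 fold change was 1.09 ± 0.09 (SE; adjusted p = 2.03e-08), or 2.13-fold. Cdk4, its close relative, ranged from 97.5 to 106 CPM (median 101.1) and from 133 to 151 CPM (median 136), without overlap and with a log2 fold change of 0.47 ± 0.04 (SE; adjusted p = 7.02e-09). The antisense neighbour Tspan31 shares 19.7% of the exon bases of Cdk4, and how reads on the shared bases were counted is not stated. Cdk2, the partner of cyclin E, was slightly lower (-0.15 ± 0.05 SE, adjusted p = 0.0122), with overlapping groups at 39.1 to 51.6 CPM.

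The D-type cyclins, which sense growth signals, differed in level and in change. Ccnd2, the most abundant, had 627 to 1026 CPM in CP CML (median 735) and 685 to 900 CPM in BC CML (median 750), a log2 fold change of -0.01 (95% interval -0.23 to 0.22). Ccnd3 rose by 0.20 ± 0.05 (SE; adjusted p = 0.00264), from 158 to 194 CPM (median 174) to 180 to 220 CPM (median 203). Ccnd1, which lymphocytes barely use, rose from 0.489 to 3.601 CPM (median 0.917) to 2.09 to 12.96 CPM (median 6.02), with overlap. The Ccnd1 log2 fold change was 2.23 ± 0.52 (SE; adjusted p = 0.00164), on 8 to 252 reads per mouse. Its highest mice were BC CML 6 (12.96 CPM), BC CML 2 (9.41 CPM) and BC CML 5 (6.88 CPM) and, in CP CML, CP CML 1 (3.601 CPM) and CP CML 8 (3.08 CPM). These were also the highest mice of their groups for the summed B cell markers, at 513, 319, 292, 178 and 156 CPM in the same order. The same mice had the highest summed plasma cell markers within their groups. The summed stem and progenitor markers were also highest in BC CML 6 (49.7 CPM) and BC CML 2 (38.0 CPM). In CP CML they were highest in CP CML 8 (10.3 CPM) and CP CML 1 (9.22 CPM). The part of other cells in Ccnd1 was not tested. Antisense genes share 23.4% of the exon bases of Ccnd1 and 17.4% of those of Ccne2, which adds to the uncertainty of both. Ccne2 rose by 0.86 ± 0.16 (SE; adjusted p = 0.000137), from 3.603 to 6.37 CPM (median 5.38) to 5.96 to 12.7 CPM (median 8.99). Ccne1, which encodes the other cyclin E, gave 0.16 ± 0.07 (SE) and missed the threshold (adjusted p = 0.0526), but the Ccne1 log2 fold change passed it without CP CML 6 (0.18), CP CML 7 (0.18) or BC CML 6 (0.22).

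All 5 CDK inhibitors passed the test, 4 higher and 1 lower, where 65.2% of all genes passed. Cdkn1b (p27), by far the most abundant of them in CPM, ranged from 232 to 300 CPM in CP CML (median 262) and from 297 to 395 CPM in BC CML (median 345). Its groups overlapped by BC CML 5, the lowest BC CML mouse, and its log2 fold change was 0.41 ± 0.07 (SE; adjusted p = 4.54e-05). Cdkn1a (p21), the p53 target that stops the cycle after damage, was low but did not overlap between groups, with 0.305 to 1.53 CPM (median 0.969) and 1.94 to 4.82 CPM (median 2.46). It rose by 1.53 ± 0.26 (SE; adjusted p = 5.63e-05) on the log2 scale, on 5 to 89 reads per mouse. Cdkn1c (p57), a guardian of quiescence in blood stem cells, rose from 0.378 to 1.103 CPM (median 0.735) to 2.24 to 3.57 CPM (median 3.04), without overlap. Its log2 fold change was 2.03 ± 0.19 (SE; adjusted p = 5.16e-08), on 7 to 68 reads per mouse, and 30.6% of its exon bases overlap an antisense gene. The summed stem and progenitor markers, at 4.24 to 10.3 CPM and 20.7 to 49.7 CPM, did not overlap between the groups either. Nor did the summed natural killer, myeloid, naive T cell, activated or effector T cell, and T cell markers. The mice with most Cdkn1c in their group were BC CML 3 (3.57 CPM) and CP CML 7 (1.103 CPM). Their stem and progenitor sums were 20.7 CPM, the lowest in BC CML, and 5.94 CPM. The part of other cells in Cdkn1c was not tested.

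The INK4 inhibitors, which bind CDK4 and CDK6, moved in opposite directions. Cdkn2d fell from a range of 61.8 to 96.7 CPM (median 73.8) to one of 41.3 to 53.4 CPM (median 45.8), without overlap, with a log2 fold change of -0.68 ± 0.09 (SE; adjusted p = 7.95e-06). Cdkn2c rose by 0.30 ± 0.10 (SE; adjusted p = 0.0114), from 7.62 to 12.4 CPM (median 9.92) to 11.1 to 13.9 CPM (median 12.2), with overlap. The 2 pocket protein genes among the 52 both passed, in opposite directions, and Rbl1 (p107), listed with the DREAM genes, did not (0.08, adjusted p = 0.0967 by edgeR). Rb1, the retinoblastoma gene, rose by 0.28 ± 0.05 (SE; adjusted p = 9.10e-05), its groups overlapping between 111.6 and 111.8 CPM. Rbl2 (p130), the pocket protein of resting cells, fell from 238 to 260 CPM (median 257) to 197 to 226 CPM (median 212), without overlap and with a log2 fold change of -0.26 ± 0.04 (SE; adjusted p = 7.49e-06). Antisense genes overlap 9.17% and 11.8% of the exon bases of Rbl2 and 6.78% and 8.11% of those of Rb1, so the same uncertainty applies to both.

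**Figure D4:**
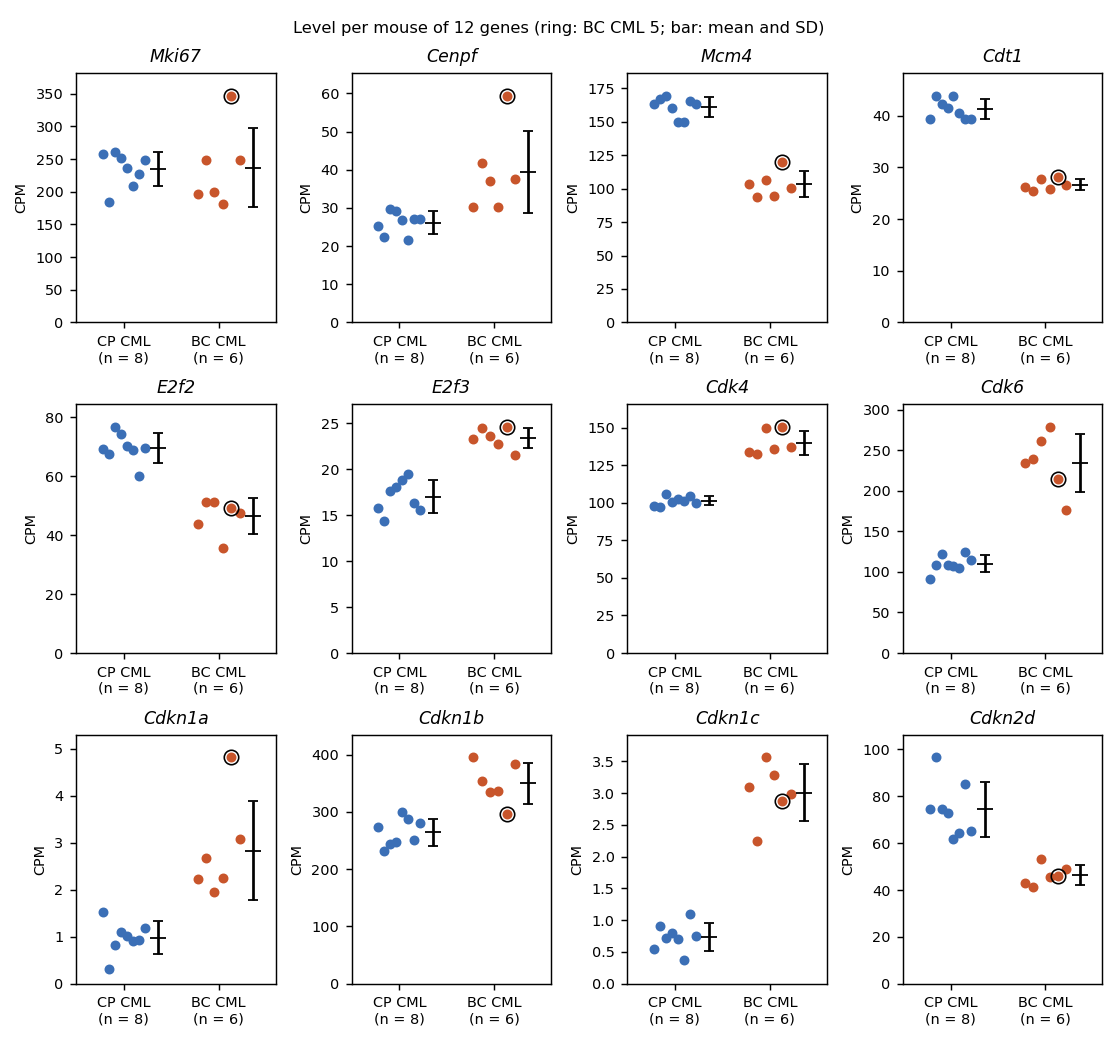
CPM (y axis, from 0) of 12 of the genes in each mouse, 1 point per mouse, with the mean and SD beside each group and BC CML 5 ringed. Mki67 overlaps between the groups, Cenpf, E2f3, Cdk4, Cdk6, Cdkn1a and Cdkn1c lie higher and Mcm4, Cdt1, E2f2 and Cdkn2d lower in BC CML without overlap, and Cdkn1b is higher with BC CML 5 as its lowest BC CML mouse.

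Per kilobase of the length listed in the table, genes of G1 and the clamp gene led. In CP CML, Ccnd2 (125 ± 22.3 CPM per kb, SD, n = 8) and Pcna (115 ± 8.28) came first and did not differ beyond their spread, followed by Cdk4 (75.7 ± 2.25), Cdkn1b (60.4 ± 5.51) and Cdkn2d (56.5 ± 8.92), the last 2 again within their spread. Mitotic genes were lower, from Top2a (25.5 ± 2.98) and Mki67 (23.3 ± 2.62) down to Bub1 (2.34 ± 0.388). In BC CML (n = 6), Ccnd2 (124 ± 13.2 CPM per kb) came first, Cdk4 (105 ± 6.08) and Pcna (99.4 ± 6.81) lay within their spread of each other, and Cdkn1b (80.0 ± 8.16) lay below both. Cdkn2d (35.2 ± 3.26) and Rbl2 (39.9 ± 1.91) did not differ beyond their spread. The lowest genes in CP CML were Ccnd1 (0.305 ± 0.268), Cdkn1c (0.381 ± 0.113), Cdkn1a (0.439 ± 0.157) and E2f7 (0.467 ± 0.0802), which did not differ beyond their spread.

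Of 184 further genes of the same pathways, 180 were tested, 25 were higher and 64 lower (49.4% called, against 65.2% of all genes). Without BC CML 5, the pathway list genes higher in BC CML numbered 23 and the pathway list genes lower in BC CML 78. Calls over all genes, 7986 with every mouse kept, numbered 7721 to 7966 with any 1 mouse left out. In the replication machinery, 26 of 46 were lower and 4 higher, the same 65.2% called as over all genes, and the summed level of the list did not overlap between the groups, at 1894 to 2003 CPM in CP CML and 1629 to 1793 CPM in BC CML. Pole2, a subunit of DNA polymerase epsilon (-0.75 ± 0.07, SE), Mcmbp, which binds the MCM ring (-0.43 ± 0.04), and Orc3 of the origin recognition complex (-0.39 ± 0.08) fell the most by the naming rule. Pole3 (0.34), Orc4 (0.27) and Rfc1 (0.17) rose. In the mitotic machinery, 9 of 58 were lower and 7 higher (27.6% called, against 65.2%). Anln (1.52 ± 0.13, SE), Ect2 (0.83 ± 0.08) and Prc1 (0.54 ± 0.14), which act in cytokinesis, rose. Kif23 (-0.63 ± 0.08) and Racgap1 (-0.65 ± 0.10), which form the central spindle complex that recruits ECT2, fell, as did Pttg1 (securin, -0.81 ± 0.07). All of these had an adjusted p below 0.05 by edgeR.

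Among 13 genes of the DREAM and MuvB complexes, which repress cell cycle genes in resting cells, 6 were lower and 2 higher (61.5% called, against 65.2% of all genes). E2f4, the repressor E2F of that complex, fell by 0.42 on the log2 scale, Lin52 by 0.25 and Rbbp4 by 0.24, and Tfdp2, an E2F partner, rose by 0.39. In the checkpoint and p53 arm, 13 of 27 were lower and 4 higher (63% called, against the same 65.2%). Pkmyt1 (-1.16 ± 0.07, SE), which holds CDK1 inactive, Cdc25b (-0.78 ± 0.07), which activates it, and Hus1 of a checkpoint clamp (-0.56 ± 0.05) fell, and Plk2 (0.78 ± 0.18) and Sesn1 (0.39 ± 0.05) rose. Among 23 genes of the anaphase-promoting complex and the SCF ubiquitin ligases, 7 were higher and 6 lower (56.5% called, below that of all genes). Skp1a rose by 0.90 ± 0.04 (SE) and Skp2, the SCF subunit that marks p27 for degradation, by 0.53 ± 0.11, with Cdc27 at 0.39 and Anapc5 at -0.38. Of 13 tested genes among the other CDKs and cyclins, 4 were lower and 1 higher (38.5% called, also below it), with Ccnk at -0.46, Ccnt1 at -0.29 and Ccnh at 0.29. The median log2 fold change of the 180 genes was -0.07.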

How the data were processed

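Spleen T cells of 8 CP CML and 6 BC CML mice were profiled by mRNA sequencing (Kapa mRNA HyperPrep, paired reads). The authors trimmed the reads with Trimmomatic and FASTP, aligned them to mm10 with STAR 2.6.0 and counted them per gene with HTSeq 0.11.1, and deposited raw counts without normalization. The annotation and strand setting used for counting are not given in the sources used here, so how reads on bases shared by overlapping genes were counted is not known. Columns were matched to mice by name.

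R 4.3.3 with edgeR 4.0.16 and limma 3.58.1 served for all tests. Genes kept by filterByExpr (12248 of 24091) were normalized by TMM and tested with glmQLFit (robust) and glmQLFTest, BC CML against CP CML, no covariate, with Benjamini-Hochberg adjustment at 0.05. The intervals are 95% and unadjusted, and the SE includes the spread between mice and counting error. CPM used TMM library sizes, and log2 CPM a prior count of 2. DESeq2 1.42.0 was an alternative. The design, tested on simulated data, recovered 179 of 200 genes changed by 1 on the log2 scale among 12181 genes, with 14 other calls. Only those 200 genes were changed, where 65.2% of all genes passed in the data. How the test performs with so many genes changed, or with smaller changes, was not simulated. No pair of libraries of a group agreed within sampling noise (chi-square per degree of freedom at least 3.09). Libraries of 15703702 to 19914531 reads gave each member 5 to 16646 reads per mouse.

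The numbers of the replicates paired no mice: deviations of equally numbered mice from their group means had correlations from -0.27 to 0.36 over 6 numbers. The members, lists, tests and alternatives were chosen with earlier results of these data known. All 52 members could be named, and of each pathway list up to 3 genes per direction with the largest change among those that passed, averaged 1 or more in log2 CPM and had separate groups of mice. In the pathway lists, 3 symbols were replaced by the older names of the table. Seed sites, promoter letters and exon overlaps were exact matches in GENCODE vM21 and RefSeq (GRCm38.p6) sequences.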

Additional observations from a re-analysis of the deposited data

Results flagged for a closer look

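Each member's CPM was examined in each group for a mouse whose gap to its nearest neighbour was a large share of the group's range (Dixon's rule). Of 104 member groups, 11 were marked, where chance marks about 1 in 20 groups, and 10 of the 11 were BC CML 5 as the highest BC CML mouse. Genes that rise and fall together are not independent, so these marks describe 1 mouse rather than 10 events. Among mitotic genes, BC CML 5 had 254 CPM of Top2a against 171 CPM in the next mouse, 21.8 CPM of Birc5 against 13.7, 9.48 CPM of Aurka against 6.43 and 43.8 CPM of Ccna2 against 29.5. It also had 44.1 CPM of Cenpe against 29.98, 60.0 CPM of Kif11 against 40.6, 39.0 CPM of Tpx2 against 26.5 and 18.96 CPM of Ube2c against 12.6. Among S phase genes it had 84.2 CPM of Mcm3 against 66.7 and 207 CPM of Mcm6 against 165. The summed mitotic level marked the same mouse, at 1073 CPM against 747 CPM. The remaining mark was Ccne1, lowest in BC CML 6 at 14.7 CPM against 18.1 CPM in the next mouse.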

How the results depend on the processing

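Over 7 alternatives (the likelihood ratio test, DESeq2, RLE factors, library size alone, no filter, more than 1 CPM in at least 6 samples, and a replicate block), 352 of 364 member values kept direction and side of the threshold, and leaving out each mouse in turn, 679 of 728 did. The members higher numbered 13 to 16 and those lower 9 to 10 under the alternatives, and 13 to 15 and 9 to 13 with a mouse left out. Mitotic genes lower were 0 to 2 with a mouse left out, 2 arising only without BC CML 5. Genes without a call changed sign near 0: the Ccnd2 log2 fold change was 0.00045 with DESeq2, 0.0004002 with RLE factors and 0.0012 with the CPM filter, and with a mouse left out the log2 fold change ranged from -0.129 to 0.0802 for Mki67, -0.0338 to 0.165 for Birc5, -0.104 to 0.154 for Ccnb2, -0.185 to 0.0581 for Ccna2, -0.0278 to 0.175 for Bub1, -0.0311 to 0.146 for Bub1b, -0.222 to 0.00439 for Cdc20, -0.159 to 0.0344 for Cenpe, -0.137 to 0.0778 for Kif11, -0.0293 to 0.0653 for Mcm6, -0.0582 to 0.0528 for Rrm1, -0.0264 to 0.211 for Gins2 and -0.0588 to 0.0658 for Ccnd2. With the replicate block, over replicates 1 to 6 of each group, 23 members passed, 22 of them the same as without it. E2f7 was lost (0.41, adjusted p = 0.0724 by edgeR), Mcm5 gained (-0.18), Mki67 (-0.0052) and Kif11 (-0.0075) changed sign, and the numbers were not shown to pair the mice. Top2a passed with the likelihood ratio test and DESeq2, and Ccne1 with DESeq2, RLE factors and the CPM filter. The causes were not tested. Over all genes the calls numbered 7280 to 8719, and 7721 to 7966 with a mouse left out. Low counts limit Cdkn1a and Cdkn1c, at 5 to 89 reads, and Ccnd1 in CP CML, at 8 to 66 reads. Neither mixed cells nor whatever the library names mark can be told apart from genotype.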
